A study of Drosophila melanogaster with 30 samples.

Results

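The mitochondrial ribosomal proteins were followed through brains of the fly Drosophila melanogaster that slept, were kept awake at night, or were stimulated when active. The genes were those whose array probe sets carry exactly 1 symbol, updated by gene number, that begins with mRpL (large subunit) or mRpS (small subunit). They numbered 64 of the 10844 genes named on the array, 43 of the large and 21 of the small subunit, and were measured by 66 probe sets. For mRpL12 and mRpL11, which have more than 1 probe set, the probe set with the highest mean over the arrays was used. The RefSeq gene table for the Release 6 plus ISO1 MT assembly lists 73 genes with these prefixes. The 64 genes lie on all major arms, with 10 on 2L, 10 on 2R, 16 on 3L, 18 on 3R and 10 on X.

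The mitochondrial ribosome translates the few messenger RNAs that the mitochondrial genome encodes, almost all of them for core subunits of oxidative phosphorylation. Its RNA comes from the mitochondrial genome, but all its proteins are encoded in the nucleus, made on cytosolic ribosomes and imported. Some of the proteins have bacterial counterparts and others were added in the evolution of mitochondria. By their numbering, 26 large subunit and 10 small subunit members have a bacterial counterpart, and 17 and 11 do not. Neurons depend heavily on oxidative phosphorylation, and in Drosophila mutations of tko, which encodes the mitochondrial counterpart of bacterial ribosomal protein S12, cause bang sensitivity, a paralysis after mechanical shock.

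All flies were virgin Canton-S females, 5 days old, housed in populations of 50 at 25 °C with 12 h of light and 12 h of dark, and each of the 30 Affymetrix Drosophila Genome 1 arrays measured RNA from a pool of 139 to 193 whole brains. In the deprivation experiment (21 arrays), flies were taken untreated at ZT14, 14 h after lights on, when their consolidated sleep begins (ZT14 0 h group). Others were taken at ZT16, ZT18 or ZT20 after 2, 4 or 6 h in which they were left to sleep (sleeping groups) or were kept awake by stimulating the housing by hand (deprived groups). The 9 arrays of the active period experiment hold flies taken untreated at ZT10, left undisturbed until ZT14 (wake group), or stimulated by hand from ZT10 to ZT14 (stimulated group). Each of the 10 groups has 3 pools, which the study's text calls biological replicates, so the p-values measure the spread between pools, and the number of arrays limits the precision. The comparison of stimulated with wake flies addresses handling in the active period, apart from the loss of sleep. With 12 h of light, the lights went off between ZT10 and ZT14. The source name of sleeping 6 h replicate 1 reads deprived, but its other labels put it with the undisturbed flies, where it was kept.

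Values are log2 signals, so a difference of 1 is a doubling. The arrays had medians from 4.88 to 4.96, and arrays of a group correlated at 0.974 to 0.997. Markers of neurons (elav, nSyb, Syn, brp) and glia (repo, Gs2, moody, wrapper) had means over the 30 arrays above the array medians, from 5.77 for moody to 10.6 for Gs2. Yp1, Yp2 and Yp3, yolk proteins made in fat body, had means of 9.93 to 11.6. The germline genes osk (2.61) and vas (2.59), the haemocyte gene eater (2.88) and the flight muscle actin Act88F (3.35) were low, but the eggshell gene Vm32E (6.46), the haemocyte gene PPO1 (5.93) and the muscle gene Mlc2 (8.07) were not. Deprived 2 h replicate 2 stood apart from the other arrays. The mean of the 4 neuron markers was 5.36 on it and 6.07 to 7.14 on the other 29 arrays. The signal of the control transcripts was higher at the 3′ than at the 5′ end by 2.53, the largest such difference among the 21 arrays of its experiment, where the others had 1.45 to 2.37. The median differences that include this array, and the values of the members closest to the threshold, are also given without it. The correlations between members include it. In whole brains, fewer cells of a type and less RNA per cell cannot be told apart.

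Among the members, 61 of 64 had a mean above the median of all probe sets and 45 lay above the upper quartile. The brightest were mRpS11 (8.20), mRpL55 (8.09), mRpS18C (7.63) and mRpS24 (7.59), and the dimmest were mRpS26 (5.27), mRpL19 (4.70), mRpL32 (4.69) and mRpL41 (4.05). Signals of different probe sets depend on their probes as well as on the transcript, so this order is one of signals and not of transcript levels. Between the arrays of a group, the pooled SD of a member had a median of 0.149, against 0.118 over all probe sets. The steadiest were mRpL2, which binds near the peptidyl transferase centre (0.072), mRpL45 (0.072), which in mammals sits by the tunnel exit at the inner membrane, and mRpL4 (0.076). The most variable were mRpL33 (0.363), mRpS33 (0.291) and mRpS25 (0.271).

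The spread between pools of the same group was shared by nearly all members. On 7 of the 30 arrays, 60 or more of the 64 members lay on the same side of their group's mean, and on 16 arrays 50 or more did. Over all probe sets, the share above the group mean ranged from 43.0% to 57.6%. On deprived 2 h replicate 1, 63 of 64 members lay below the mean of the group, with a median deviation of -0.27. On deprived 2 h replicate 2, 61 lay above it, with a median deviation of 0.27. The same contrast was seen at 4 h, where deprived replicate 1 had 62 members below (median -0.19) and deprived replicate 2 had 62 above (median 0.15). Sleeping 4 h replicate 3 had 60 above (median 0.17). In the active period experiment, wake replicate 1 had 60 members below the mean of its group (median -0.14) and wake replicate 3 had 62 above (median 0.11).

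**Figure D1:**
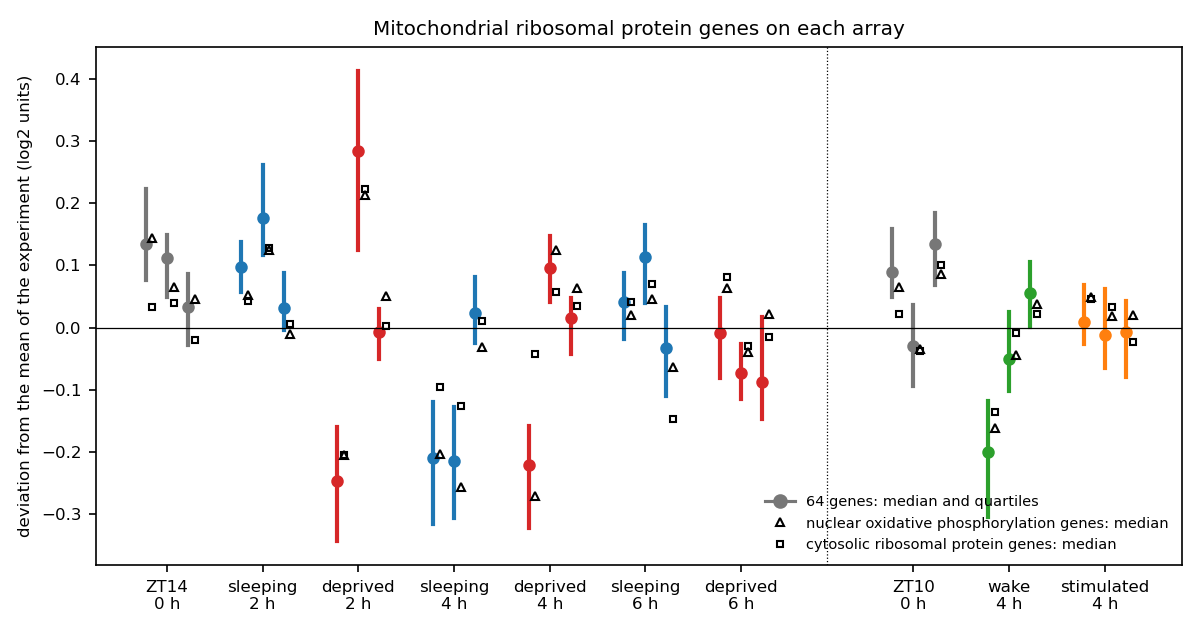
Each filled point is the median, and each bar the range from the lower to the upper quartile, of the 64 genes on 1 array, as the deviation in log2 units from each gene's mean over the arrays of the same experiment; the dotted line parts the deprivation experiment (left) from the active period experiment (right), and open symbols give the medians of 65 nuclear oxidative phosphorylation genes (triangles) and 31 cytosolic ribosomal protein genes (squares). The 3 deprived 2 h arrays span -0.25 to 0.28, more than the distance between any 2 group means.

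Pairs of members moved together over these deviations. The median correlation over the 2016 pairs was 0.71 on the 21 arrays of the deprivation experiment and 0.55 on the 9 of the active period experiment, where the points share pools, arrays and normalisation. The same median was 0.003 and 0.007 over all genes, 0.52 and 0.49 over 31 cytosolic ribosomal protein genes, and 0.45 and 0.39 over 65 nuclear genes of oxidative phosphorylation. Each member was also set against the median of the other 63 members on the 21 arrays. The median of these correlations was 0.87, and 43 of 64 were over 0.8, with mRpS7 (0.97), mRpL55 (0.96), mRpS6 (0.96) and mRpS33 (0.96) at the top.

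The members that did not follow the others were in the large subunit. mRpL45 correlated at -0.38 with the median of the other members, the only value below 0, and mRpL2 (0.26), mRpL22 (0.34) and mRpL4 (0.39) were the next lowest. mRpL45 had 7.47, 7.36 and 7.27 in sleeping 4 h replicates 1 to 3, while mRpL33 had 5.98, 5.95 and 6.80 on the same arrays. The array on which mRpL33 was highest there was thus the one on which mRpL45 was lowest. In the deprived 2 h group mRpL33 had 5.95, 7.21 and 6.59 and mRpL45 had 7.29, 7.22 and 7.24. mRpL33 thus spanned more than a doubling within that group, while mRpL45 hardly varied.

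**Figure D2:**
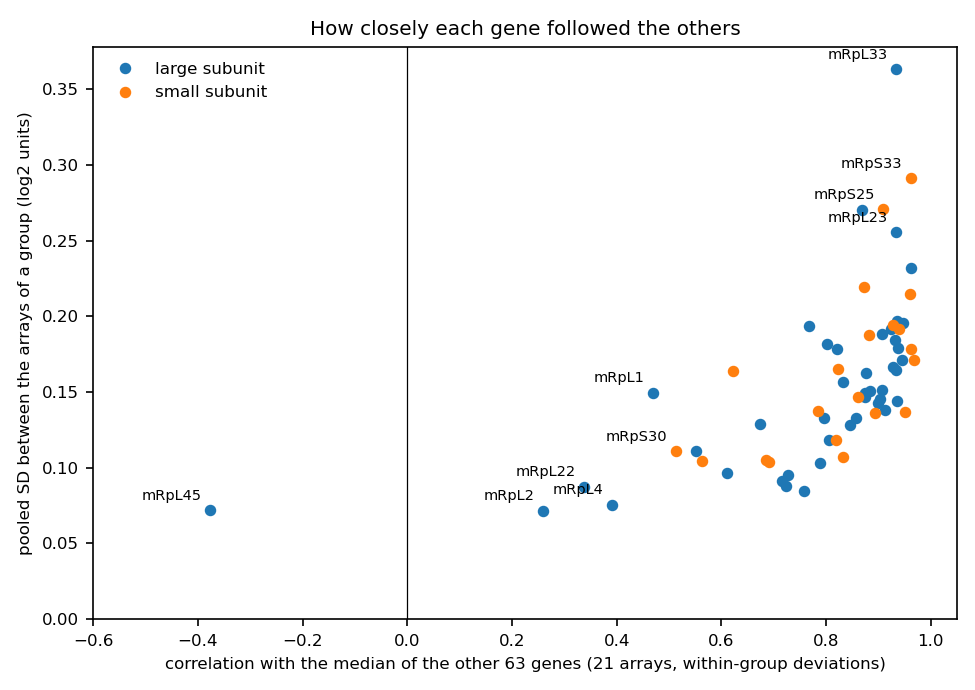
Each point is 1 of the 64 genes: the horizontal axis gives the correlation of its deviations from group means with the median deviation of the other 63 genes over 21 arrays, and the vertical axis its pooled SD between the arrays of a group in log2 units. Most genes lie at 0.8 or above, the most variable, such as mRpL33 (0.363), follow the others closely, and mRpL45 (-0.38) lies alone below 0.

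No member passed an adjusted p of 0.05 by limma in the mean difference between deprived and sleeping flies over 2, 4 and 6 h, where 0.924% of all 13966 probe sets did. At an unadjusted p under 0.05 there were 4 members (6.25%), all lower in deprived flies, against 14.4% of all probe sets. The median difference over the 64 members was -0.02, with 44 negative and 20 positive, against 0.01 over all probe sets and -0.03 over the 2415 probe sets whose mean signal lay between the quartiles of the members. Without deprived 2 h replicate 2 the members' median was -0.08, with 60 negative and 11 at an unadjusted p under 0.05, and without deprived 2 h replicate 1 it was 0.01. It was -0.076 with hybridisation run as a block, -0.126 with the 3′ to 5′ difference of the controls as a covariate and 0.001 with the quantile normalisation renewed. The 95% intervals of the 64 differences had a median half-width of 0.15, and the outermost bounds were -0.37 and 0.35. The 4 neuron markers were all lower in deprived flies (median -0.49) and so were the 3 photoreceptor markers (median -0.45), none past the threshold by limma, with 3 and 3 at an unadjusted p under 0.05. Of the 4 glia markers 3 were lower (median -0.05), 1 at that p (adjusted p = 0.0546 by limma). Without deprived 2 h replicate 2 the neuron and photoreceptor medians were -0.33 and -0.53, with 3 of the 4 neuron markers lower. The glia median was then 0.01, with 2 of 4 lower and 1 past the threshold, where 154 of all 13966 probe sets passed. The part of these markers was not tested. With array weights 1 member, mRpL3, passed, where 8.28% of all probe sets did. On simulated data with each probe set's mean and spread, this comparison recovered 64.2% of changes of 0.25 and 94.0% of changes of 0.5. The changes were equal at all 3 hours, in 200 probe sets drawn from all, with noise independent between probe sets. The members had larger and shared spreads, so these are not recovery rates for them.

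How many of the members' differences were negative in each subunit depended on deprived 2 h replicate 2, most of all in the small subunit. In the large subunit 34 of 43 were negative (median -0.04), among them 25 of the 26 with a bacterial counterpart (median -0.05) and 9 of the 17 without (median -0.01). In the small subunit 10 of 21 were negative (median 0.00). Without deprived 2 h replicate 2, 41 of 43 were negative in the large (median -0.08) and 19 of 21 in the small subunit (median -0.05). All 26 large subunit members with a bacterial counterpart were then negative (median -0.10), and so were 15 of the 17 without (median -0.06). Differences between the subunits, or between members with and without a counterpart, were not tested.

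**Figure D3:**
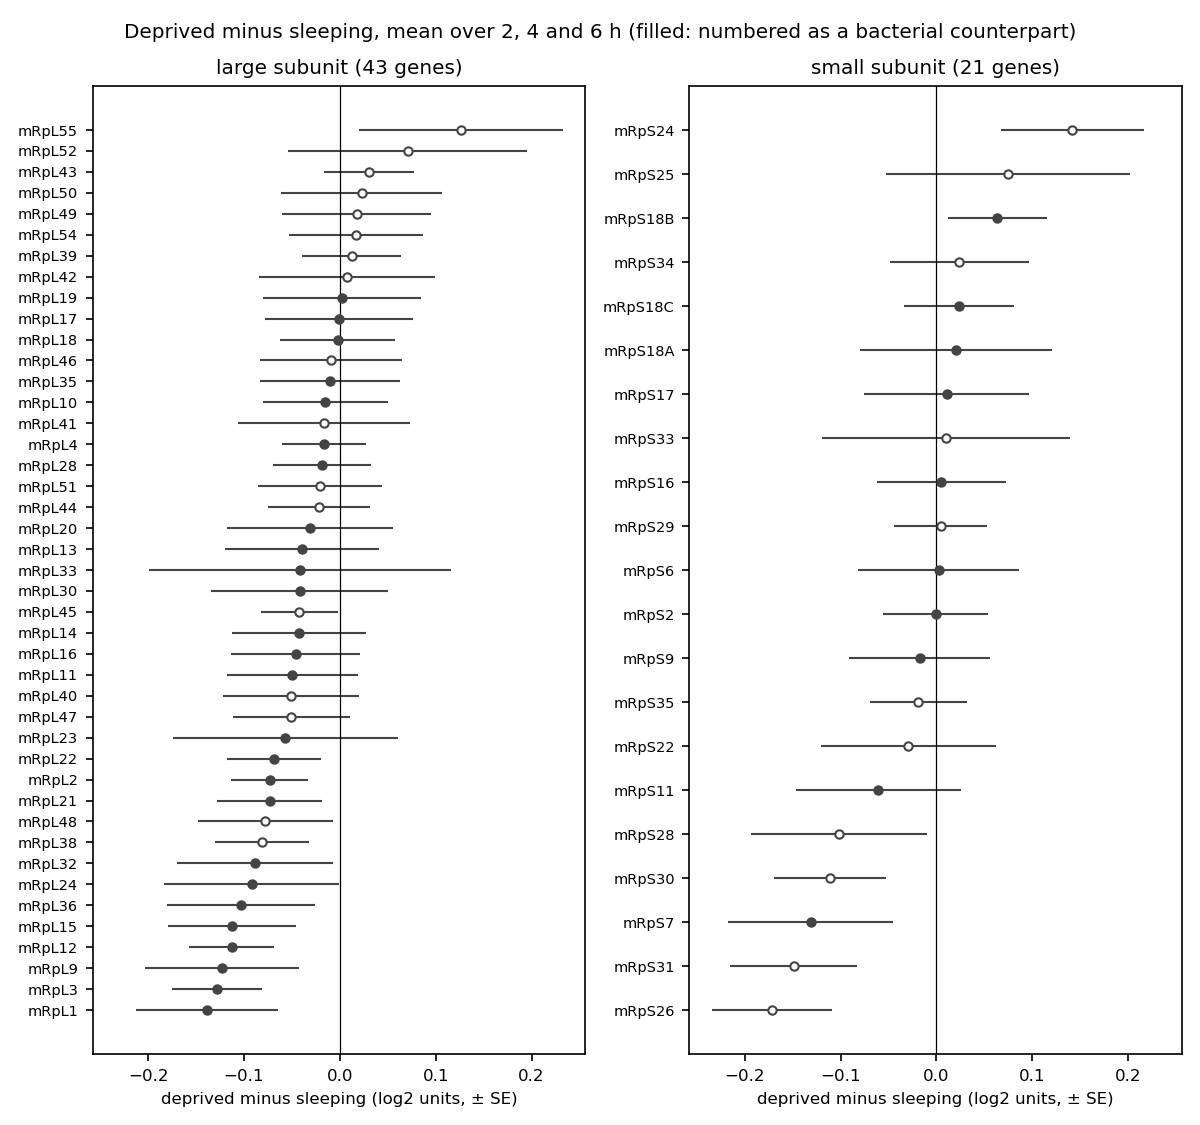
Points give deprived minus sleeping in log2 units, as the mean over 2, 4 and 6 h, for the 43 large (left) and 21 small (right) subunit genes, sorted by value; bars are standard errors, and filled points are genes numbered as a bacterial counterpart. The values run from -0.17 (mRpS26) to 0.14 (mRpS24), and none passed an adjusted p of 0.05.

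The lowest p-values belonged to mRpS26 and mRpL3. mRpS26, a small subunit protein with no bacterial counterpart, had 5.40, 5.39 and 5.37 in sleeping and 4.93, 5.37 and 5.13 in deprived flies at 2 h. At 4 h it had 5.05, 5.07 and 5.36 in sleeping and 4.95, 5.31 and 5.30 in deprived flies, and at 6 h it had 5.33, 5.40 and 5.41 against 5.04, 5.12 and 5.10. The groups overlapped at 4 h and, by less than the printed digits, at 2 h, and at 6 h all deprived arrays were lower. The mean difference was -0.17 ± 0.063 (SE, 9 arrays against 9; adjusted p = 0.236), a linear ratio of 0.888, and 7 of 9 deprived arrays lay below the sleeping mean of their hour. It was -0.21 without deprived 2 h replicate 2 (adjusted p = 0.109 by limma).

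mRpL3, the counterpart of a bacterial protein that is bound early in assembly of the large subunit, had 6.98, 6.95 and 6.93 in sleeping and 6.70, 6.97 and 6.85 in deprived flies at 2 h. At 4 h the values were 6.86, 6.74 and 6.97 against 6.76, 6.77 and 6.81, and at 6 h they were 6.94, 6.93 and 6.86 against 6.78, 6.68 and 6.68. Only at 6 h did the groups not overlap. The mean difference was -0.13 ± 0.047 (adjusted p = 0.236 by limma), and 8 of 9 deprived arrays lay below the sleeping mean of their hour. It was -0.15 without deprived 2 h replicate 2 (adjusted p = 0.164 by limma).

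mRpL12, the counterpart of the bacterial stalk protein that recruits translation factors to the ribosome, followed with -0.11 ± 0.045 (adjusted p = 0.277 by limma) and 8 of 9 deprived arrays below. Its second probe set differed by 0.07 ± 0.066 in the other direction, so its probe sets disagree in sign. For mRpL11, a protein of the stalk base, the probe set used differed by -0.05 and the other by 0.02. mRpS31 (-0.15 ± 0.066), mRpL1 (-0.14 ± 0.074) and mRpS30 (-0.11 ± 0.058) completed the 6 negative differences of smallest p, at adjusted p-values of 0.320 to 0.398 by limma. Without deprived 2 h replicate 2, mRpL12 had -0.13, mRpS31 -0.17, mRpL1 -0.16 and mRpS30 -0.11, none past the threshold.

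On the positive side, mRpS24 was closest to the threshold at 0.14 ± 0.074 (adjusted p = 0.388 by limma). It had 7.67, 7.69 and 7.45 in sleeping and 7.47, 8.0004 and 7.62 in deprived flies at 2 h, 7.09, 7.42 and 7.58 against 7.42, 7.70 and 7.51 at 4 h, and 7.63, 7.58 and 7.34 against 7.71, 7.67 and 7.63 at 6 h. The groups overlapped at 2 and 4 h, and at 6 h, where sleeping replicate 1 and deprived replicate 3 nearly met, all deprived arrays were higher. mRpL55 (0.13 ± 0.106), mRpS25 (0.07 ± 0.127), mRpL52 (0.07 ± 0.124), mRpS18B (0.06) and mRpL43 (0.03 ± 0.047) were the next by p, at adjusted p-values of 0.569 to 0.806 by limma. Without deprived 2 h replicate 2, mRpS24 had 0.09, mRpL55 0.04 and mRpS18B 0.04, and mRpL43, mRpS25 and mRpL52 had values below 0.

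At single hours most members had differences of the same sign, though the sign depended on single arrays or on the fit at 2 and 4 h. At 2 h, 59 of 64 differences were negative (median -0.10, against 0.02 over all probe sets) and none passed the threshold, where 0.00716% of all probe sets did. The groups did not overlap for 2 members, mRpL36 and mRpL21, both lower in deprived flies, and this was so for 4.86% of all probe sets (12% in either direction, 7.15% higher). An unadjusted p under 0.05 was reached by 2 members, mRpL48 (-0.28) and mRpS26 (-0.24), against 8.33% of all probe sets. With array weights mRpS26 passed (3.07% of all probe sets). The median rested on 2 arrays of the deprived group: it was -0.25 without replicate 2, the array that stood apart, and 0.03 without replicate 1. With hybridisation run as a block it was 0.024. No run held both sleeping and deprived 2 h arrays, so this value rests on run shifts estimated from other groups. At 2 h, run and deprivation cannot be told apart. Without replicate 2, mRpL48 had -0.44 and mRpS26 -0.36, neither past the threshold by limma. The 3 photoreceptor markers (median -0.88, 3 at an unadjusted p under 0.05) and the 4 neuron markers (median -0.60, 1 at that p) were all lower in deprived flies. Without replicate 2 the medians were -0.999 and -0.06, with 3 of the 4 neuron markers lower. The part of these markers, and of the large 3′ to 5′ difference of replicate 2, was not tested.

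At 4 h, 58 of 64 differences were positive (median 0.08, against -0.02 over all probe sets), including all 21 of the small subunit. None passed the threshold by limma (0.0143% of all probe sets did), and 1, mRpL39 (0.19), had an unadjusted p under 0.05, against 4.37% of all probe sets. mRpS34 differed by 0.24 and mRpL32 by 0.22, and on the negative side mRpL2 by -0.09, mRpL45 by -0.07 and mRpL3 by -0.07. The groups overlapped for all 64 members, and did not for 9.96% of all probe sets (3.44% higher, 6.52% lower). With arrays weighted by their quality in limma, 18 of the 64 members passed, a larger share than the 14% of all probe sets. The weights of sleeping 4 h replicates 1 to 3 were 3.96, 0.707 and 0.432, and those of the deprived 4 h arrays 0.607, 0.921 and 2.42. The sleeping 4 h group was the lowest of the 7 groups of its experiment for 47 of 64 members: 2 of its arrays had member medians of 6.44 and 6.45 and the third had 6.69. Deprived 4 h replicate 1, at 6.42, was as low as these, and without it the median difference was 0.18. The sign turned in other fits: the median was -0.032 with hybridisation run as a block, -0.025 with the 3′ to 5′ covariate, and -0.13 with 57 members negative within the only run that held both groups (1 deprived and 2 sleeping arrays). The 3 photoreceptor markers were lower in deprived flies (median -0.39), none at an unadjusted p under 0.05. The lowest array of the sleeping group in the 3′ to 5′ difference, replicate 1 with 1.45, was also the lowest of all 30 arrays. It was the only array of its chip lot and of its hybridisation run, and the part of these was not tested.

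At 6 h, 52 of 64 differences were negative (median -0.08, against 0.02 over all probe sets). The 2415 probe sets of like mean signal had a median close to that of the members, -0.07, with 64.2% negative. Their median was -0.04 at 2 h and 0.01 at 4 h. The 3 deprived 6 h arrays were close to each other, with member medians of 6.55 to 6.68. No member passed the threshold by limma, where 0.0931% of all probe sets did. The groups did not overlap for 15 members that were lower and 1, mRpS24, that was higher in deprived flies, together 25.0% of the members against 28.8% of all probe sets (13.4% lower, 15.4% higher). At an unadjusted p under 0.05 were 7 members, all lower, or 10.9% against 18% of all probe sets. mRpL32, whose precursor is cut by the m-AAA protease in yeast and mouse, had 4.84, 4.86 and 4.72 in sleeping and 4.54, 4.48 and 4.34 in deprived flies (-0.36 ± 0.141, adjusted p = 0.219 by limma). mRpS30 had 5.98, 5.99 and 5.90 against 5.68, 5.73 and 5.58 (-0.30 ± 0.1004, adjusted p = 0.183 by limma). In both, every deprived array was below every sleeping array.

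Several array measures moved with this hour. The mean of the neuron markers was 6.07 to 6.51 on the deprived and 6.62 to 6.97 on the sleeping 6 h arrays, and the 3′ to 5′ difference of the controls was 2.04 to 2.32 against 1.73 to 1.92. All 3 sleeping arrays shared a hybridisation run (1 date and time in the scanner settings) that held none of the deprived 6 h arrays. With the run as a block the members' median was -0.24, and with the 3′ to 5′ difference as a covariate it was -0.27. With the run as a block 1 member, mRpS31, passed (-0.63, adjusted p = 0.0492 by limma), where 5.04% of all probe sets did. With array weights no member passed, where 3.2% of all probe sets did. With the quantile normalisation renewed the median was -0.0073. The part of cell make-up in the result was not tested.

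The deprivation difference at 6 h minus that at 2 h had a median of -0.01 (0.15 without deprived 2 h replicate 2, -0.25 with hybridisation run as a block, -0.19 with the 3′ to 5′ covariate), and none of the members passed the threshold by limma (0.00716% of all probe sets did) or an unadjusted p of 0.05. At an unadjusted p under 0.05 stood 3.32% of all probe sets. The positive changes of smallest p were those of mRpS18C (0.20), mRpL50 (0.29) and mRpL48 (0.23), and the negative ones those of mRpS30 (-0.19), mRpL32 (-0.23) and mRpL39 (-0.14), all at an adjusted p of 0.999 by limma.

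**Figure D4:**
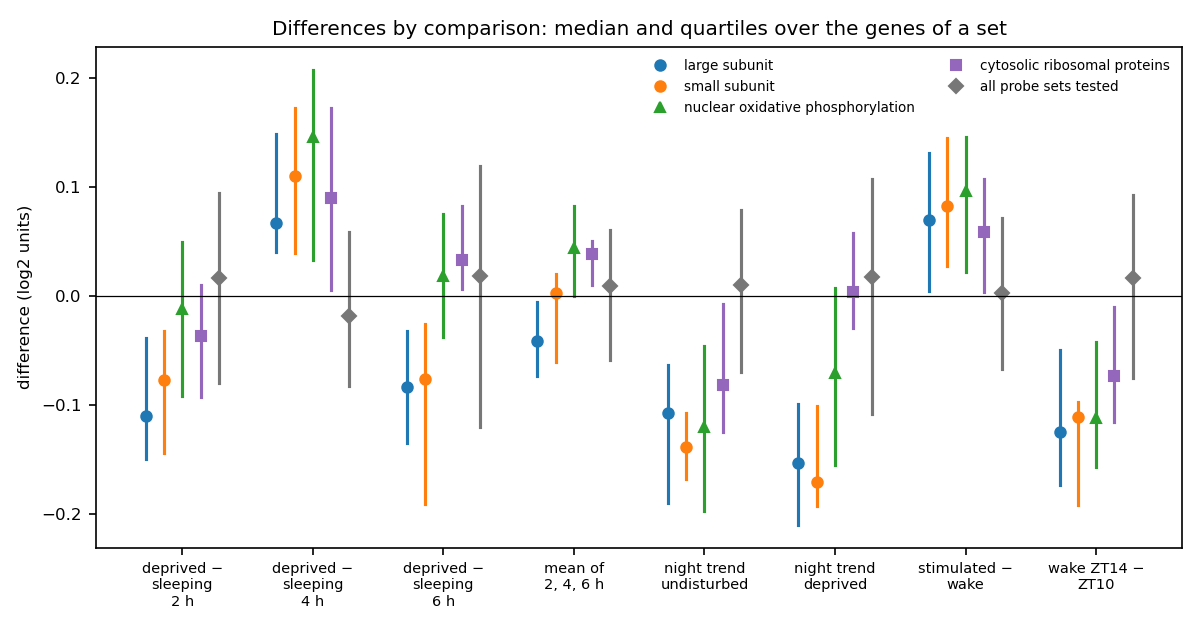
For 8 comparisons the points give the median, and bars the lower and upper quartile, of log2 differences over the large and small subunit genes, nuclear oxidative phosphorylation genes, cytosolic ribosomal protein genes and all 13966 probe sets tested. In this fit both subunits lie below 0 at 2 and 6 h and above 0 at 4 h (the 4 h median of all members is -0.032 with hybridisation run as a block, the 2 h median 0.024), and all probe sets stay near 0.

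The members' trends over the night were mostly negative in both conditions, but in undisturbed flies this depended on the fit. The linear trend from ZT14 over 6 h was negative for 60 of 64 members in undisturbed flies (median -0.12, against 0.01 over all probe sets) and for 59 in deprived flies (median -0.15, against 0.02). With hybridisation run as a block the median in undisturbed flies was 0.057, and with the 3′ to 5′ covariate it was 0.021, both of the other sign. In deprived flies the median was -0.18 and -0.22 in these fits, -0.077 with the quantile normalisation renewed and -0.10 without deprived 2 h replicate 2. Without that array, the 2415 probe sets of like mean signal had a median of -0.08 in deprived flies. In undisturbed flies no hybridisation run held both ZT14 or 2 h and 4 or 6 h arrays, so their trend cannot be told apart from the run. Both trends start from the same ZT14 arrays, so they are not independent. None passed the threshold by limma in either, where 0.107% and 0.294% of all probe sets did. At an unadjusted p under 0.05 were 4 members in undisturbed flies (7.89% of all probe sets) and 9 in deprived flies, all negative, or 14.1% against 15.7% of all probe sets. The difference between the trends was not tested as a trend.

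In undisturbed flies the trend of smallest p was that of mRpL48 (-0.34 ± 0.116 over 6 h, adjusted p = 0.460 by limma), followed by mRpL50 (-0.32) and mRpL19 (-0.31). mRpL48 had 5.94, 5.80 and 5.77 at ZT14, 5.74, 5.83 and 5.79 at 2 h, 5.33, 5.37 and 5.60 at 4 h, and 5.50, 5.75 and 5.49 at 6 h. The lower values thus began at 4 h, and 1 of the 6 h arrays was back in the range of the first hours. The change of hybridisation run fell at the same step: no run held both ZT14 or 2 h and 4 or 6 h arrays of these flies. Hour and run cannot be told apart here. The positive trends of smallest p were small, at 0.12 for mRpL45, 0.09 for mRpS30 and 0.04 for mRpL21.

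In deprived flies mRpL12 had the lowest p of any member in any deprivation comparison. It had 6.74, 6.65 and 6.68 at ZT14, 6.503, 6.66 and 6.54 at 2 h, 6.36, 6.60 and 6.497 at 4 h, and 6.47, 6.40 and 6.42 at 6 h, so every 6 h array was below every ZT14 array. The trend was -0.26 ± 0.073 over 6 h (adjusted p = 0.160 by limma). The dimmer probe set of this gene had a trend of 0.08 ± 0.108, again opposite in sign. mRpL9 (-0.40 ± 0.132) and mRpS31 (-0.33 ± 0.109) had steeper trends, at adjusted p-values of 0.199 and 0.208 by limma. With deprived 2 h replicate 2 left out, the trends of mRpL12, mRpL9 and mRpS31 were -0.24, -0.36 and -0.31, none past the threshold. A test for any difference among the 7 groups passed for no member (0.329% of all probe sets), and the smallest adjusted p-values by limma were those of mRpL12 (0.364), mRpL48 (0.403) and mRpS31 (0.428). In that test 5 members had an unadjusted p under 0.05, against 11% of all probe sets. With array weights 51 members passed it, where 43.8% of all probe sets did. The same weights gave 10 calls in the trend of deprived flies (11.7% of all probe sets) and 7 in that of undisturbed flies (5.71%).

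In the active period experiment the wake group was the lowest for 48 of 64 members and the ZT10 group the highest for 49. From ZT10 to ZT14 in undisturbed flies, 62 of 64 differences were negative (median -0.12, against 0.02 over all probe sets). None passed the threshold by limma, where 0.0644% of all probe sets did, but 13 members (20.3%) had an unadjusted p under 0.05, all lower at ZT14, against 11.4% of all probe sets. For 8 members, or 12.5%, all wake arrays were below all ZT10 arrays, which was so for 7.48% of all probe sets (16.2% in either direction, 8.76% higher). mRpS22 had 5.88, 5.59 and 5.74 at ZT10 and 5.32, 5.37 and 5.52 in wake flies (-0.33 ± 0.086, adjusted p = 0.192 by limma), with no overlap. mRpL17 differed by -0.29 (adjusted p = 0.346) and mRpS31 by -0.25 (adjusted p = 0.358). The only positive differences were 0.01 in mRpL45 and 0.01 in mRpL44.

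The size of this median depended on 1 array. Wake replicate 1 had a member median of 6.58, the lowest of the 9 arrays, and was the only array of its chip lot. Without it the members' median difference from ZT10 was -0.06, with 45 of 64 members negative. That array also had the highest mean of the 5 fat body genes, 9.73, where the other 8 arrays of the experiment had 8.46 to 9.38, and the part of this in the result was not tested. Markers of other cells differed between ZT10 and wake flies too. The 3 photoreceptor markers were all lower in wake flies (median -0.74, 3 at an unadjusted p under 0.05), the 5 fat body genes all higher (median 0.68, 4 at that p) and the 4 neuron markers all lower (median -0.13, 2 at that p). None of them passed the threshold by limma, and their part was not tested.

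The comparison of stimulated with wake flies shares the 3 wake arrays with the one before, with the opposite sign, so the signs of the 2 are not independent. Stimulated minus wake was positive for 49 of 64 members (median 0.07, against 0.00 over all probe sets), and no member passed the threshold by limma (0.0859% of all probe sets did). At an unadjusted p under 0.05 were 3 members, all higher in stimulated flies, against 7.03% of all probe sets. The groups did not overlap for 6 members that were higher and 1, mRpL45, that was lower, together 10.9% against 12.5% of all probe sets (6.77% higher, 5.75% lower). mRpL55 had 7.67, 8.06 and 8.13 in wake and 8.29, 8.22 and 8.28 in stimulated flies (0.31 ± 0.113, adjusted p = 0.623 by limma). mRpL33 had 5.89, 6.44 and 6.84 against 6.69, 6.80 and 6.86 (0.39 ± 0.177), with wake replicate 1 the lowest array. mRpS25 differed by 0.23. The negative differences of smallest p were those of mRpL45 (-0.17 ± 0.080), mRpL4 (-0.11) and mRpL22 (-0.10). Without wake replicate 1 the members' median was 0.01, and without wake replicate 3 it was 0.14. With the 3′ to 5′ covariate it was 0.028. The 3 photoreceptor markers were all higher in stimulated flies (median 0.34, 2 at an unadjusted p under 0.05) and 3 of the 4 glia markers were lower (median -0.17, 2 at that p), none past the threshold by limma, and their part was not tested.

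Set against each other, the 4 h deprivation difference and the stimulation difference differed by a median of 0.02 over the members. This median ran from -0.066 (without deprived 4 h replicate 2) to 0.12 (without deprived 4 h replicate 1) when 1 array was left out, and was 0.13 with array weights. No member and no probe set at all (0%) passed the threshold by limma, and at an unadjusted p under 0.05 were 0 members and 1.76% of all probe sets. The 95% intervals of this difference had a median half-width of 0.34, which limits what this comparison can show. The members of smallest p were mRpL4 (0.21), mRpS18B (0.20) and mRpS9 (0.24) on the positive side and mRpL12 (-0.13), mRpS35 (-0.13) and mRpL38 (-0.11) on the negative side.

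**Figure D5:**
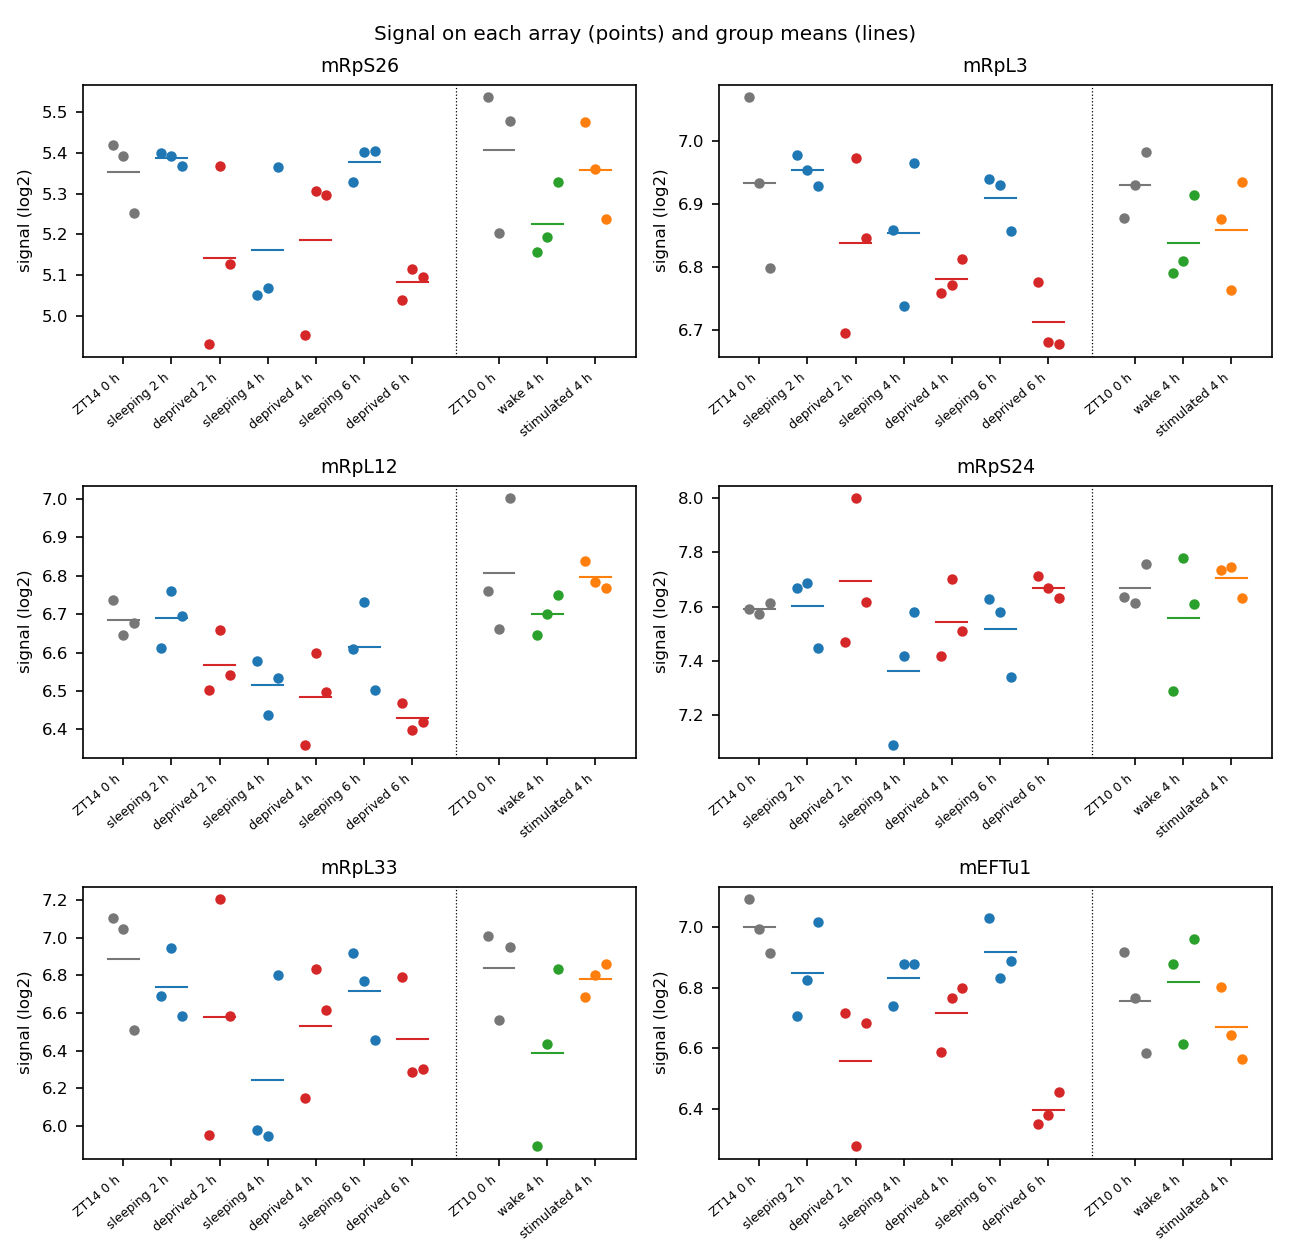
Log2 signals of 5 members and of mEFTu1 on each array (points), with group means (lines); the dotted line parts the deprivation experiment from the active period experiment. mEFTu1 lies at 6.35 to 6.45 on the 3 deprived 6 h arrays against 6.83 to 7.03 on the sleeping ones, and mRpL33 shows the widest spread within groups.

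Lists of other genes of mitochondrial translation were read in the same fit. Of the 8 translation factors with a probe set, 7 had a negative mean difference between deprived and sleeping flies (median -0.12), 4 had an unadjusted p under 0.05 (14.4% of all probe sets), and 1 passed the threshold (0.924% of all probe sets). This was mEFTu1, a mitochondrial elongation factor Tu, which carries aminoacyl-tRNA to the ribosome. It had 6.71, 6.82 and 7.02 in sleeping and 6.72, 6.28 and 6.68 in deprived flies at 2 h, 6.74, 6.88 and 6.88 against 6.59, 6.77 and 6.80 at 4 h, and 7.03, 6.83 and 6.89 against 6.35, 6.38 and 6.45 at 6 h. Its groups overlapped at 2 and 4 h and were apart at 6 h.

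mEFTu1 fell by 0.31 ± 0.061 in the mean of the 3 hours (adjusted p = 0.0187 by limma), a linear ratio of 0.808, and all 9 deprived arrays lay below the sleeping mean of their hour. Without deprived 2 h replicate 2, its lowest array, the difference was -0.26 (adjusted p = 0.0149 by limma). With the 3′ to 5′ difference of the controls as a covariate, it was -0.25 and no longer passed (adjusted p = 0.0687). At 6 h alone it was -0.52 (adjusted p = 0.0579). The trend of mEFTu1 in deprived flies was -0.50 ± 0.101 over 6 h (adjusted p = 0.0378 by limma), and it passed in 12 of the 21 fits that each left out 1 array. It missed the threshold without ZT14 replicate 1 (-0.45, adjusted p = 0.230) or 2, sleeping 4 h replicate 2, sleeping 6 h replicate 3, deprived 2 h replicate 3, deprived 4 h replicate 1 or any of the 3 deprived 6 h arrays, and in 5 of 15 other settings. In undisturbed flies the trend was -0.08 ± 0.101, and stimulated minus wake was -0.15 ± 0.107, neither past the threshold. On deprived 2 h replicate 2, the array where mEFTu1 was lowest, 61 of 64 members were above the mean of their group.

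The other translation factors did not pass. mEFG1, a mitochondrial elongation factor G, differed by -0.16 ± 0.057 (adjusted p = 0.224 by limma), mIF3 by -0.13, mRF1, a release factor, by -0.12, mEFTs, the exchange factor of elongation factor Tu, by -0.12, mIF2 by -0.05 and mRRF1 by -0.03. mEFTu2, the other elongation factor Tu gene, differed by 0.06 ± 0.046. Among 14 mitochondrial aminoacyl-tRNA synthetases none passed, 2 had an unadjusted p under 0.05 and 11 were negative (median -0.06), with AsnRS-m at -0.22 ± 0.065 (adjusted p = 0.126 by limma) and PheRS-m at -0.15. Among 14 genes of mitochondrial transcription and RNA upkeep none passed or had an unadjusted p under 0.05 (median 0.01), and PNPase and SLIRP2 differed by 0.08 and 0.16. Without deprived 2 h replicate 2, the medians of the translation factors, synthetases and upkeep genes were -0.12, -0.05 and -0.01. The small subunit genes known by other names, tko and bonsai, differed by 0.12 ± 0.114 and -0.10 ± 0.081, and by 0.0005 and -0.12 without deprived 2 h replicate 2.

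Nuclear genes of oxidative phosphorylation and of the cytosolic ribosome had medians near 0 as well. The 65 nuclear oxidative phosphorylation genes had a median difference of 0.04 with 48 positive, and the 31 cytosolic ribosomal protein genes had 0.04 with 26 positive. The medians were 0.004 and -0.001, with 35 and 14 positive, when deprived 2 h replicate 2 was left out. In neither list did a gene pass by limma, with 1 and 0 genes at an unadjusted p under 0.05. The genes of smallest p were COX5BL (0.13) and ND-20L (0.10) in the first list and RpS28a (0.10) and RpL39 (0.16) in the second. At 4 h, over the night in undisturbed flies, from ZT10 to ZT14 and in stimulated flies, both lists had medians of the same sign as the members: 0.15 and 0.09, -0.12 and -0.08, -0.11 and -0.07, and 0.10 and 0.06. At 2 h they had -0.01 and -0.04, where the members had -0.10. Without deprived 2 h replicate 2 the 2 h medians were -0.14 and -0.15, where the members had -0.25. At 6 h the lists had 0.02 and 0.03, where the members had -0.08. Whether the lists differ from the members was not tested.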

How the data were processed

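Expression was measured on 30 arrays. The deposited values are log2 signals that the authors obtained by RMA, a method that normalises by quantiles, per the design text. The submitters' processing notes also list affy, without a version. Because RMA gives all arrays the same distribution, it hides any common shift. Joint normalisation of the experiments is not stated, so differences were taken within each, and 1 comparison sets 2 such differences against each other. Chip lot, scan day and hybridisation run were read from the deposited scanner settings.

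The array has 14010 probe sets, and after removal of 44 controls 13966 were tested: 12443 with 1 symbol (12394 updated by gene number, 49 kept), 327 with several and 1196 with none. No sequences are shown. Samples were grouped by title. Differences were fitted with limma 3.58.1 in R 4.3.3 (lmFit, eBayes) with 1 mean per group over all arrays of the experiment. Benjamini-Hochberg adjustment ran over all probe sets, with 0.05 as the threshold. The fit was tested on simulated data, with 200 changed probe sets drawn from all and independent noise, so recovery can differ for the members. Stimulated minus wake recovered 2.99% of changes of 0.25, 59.7% of 0.5 and 97.0% of 1.

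Members, lists and tests were chosen with earlier results of these data known. The rule for named genes took 36 members: those passing in any comparison, the 6 positive and 6 negative differences of smallest p in the mean over 3 hours and 3 of each in other comparisons, 3 in the test over 7 groups, the 4 brightest and 4 dimmest, the 3 most and 3 least variable, and second probe sets; and 2 genes of each other list. Other genes were named after their values were seen. Beside leaving out each array, 15 alternatives were tried, on scaling, filters, variance, probe sets, array weights, batches and replicate number.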

Additional observations from a re-analysis of the deposited data

How the results depend on the processing

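No member passed an adjusted p of 0.05 by limma in any of the 11 comparisons when any 1 array was left out. With array weights (0.267 for deprived 2 h replicate 2 to 6.80 for sleeping 2 h replicate 1), members passed in the mean over 3 hours (1), at 2 h (1), at 4 h (18), in the trends of undisturbed (7) and deprived flies (10) and among the 7 groups (51); with hybridisation run as a block 1 passed at 6 h. With the run as a block, the members' median was 0.0241 at 2 h, -0.238 at 6 h, -0.253 for the change from 2 to 6 h and 0.0571 for the trend of undisturbed flies. With the array's 3′ to 5′ difference in the fit it was -0.267 at 6 h, -0.194 for the change and 0.0207 for that trend. Leaving out arrays moved the median from -0.255 (without deprived 2 h replicate 2) to 0.0309 (without replicate 1) at 2 h, and from -0.109 (without replicate 1) to 0.152 (without replicate 2) for the change from 2 to 6 h. The cause of these moves was not tested.

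Some members near 0 changed sign. With that term, the mean over 3 hours was -0.0578 for mRpL55, -0.0361 for mRpL43, -0.0861 for mRpS25, -0.108 for mRpL52 and -0.0691 for tko; at 6 h it gave -0.0273 for mRpS18C, -0.0872 for mRpS24 and -0.246 for mRpL55; it gave -0.00174 for mRpL21 and -0.0478 for mRpS24 in the trend of deprived flies, and -0.00177 for mRpL44 from ZT10 to ZT14. With the run as a block, mRpS25 had -0.102 in the mean, mRpS18B -0.0426 at 2 h, mRpL45 0.0265 at 4 h, mRpL55 -0.0707 at 6 h and mRpL50 -0.204 for the change. Array weights gave -0.0159 for mRpS24 at 2 h, -0.0317 for mRpL45 in the trend of deprived flies and -0.0456 for mRpL44 from ZT10 to ZT14. Scan day as a block gave trends of -0.000455 for mRpS30 in undisturbed and -0.00202 for mRpL45 in deprived flies. Centred arrays gave -0.0159 for mRpL45 and -0.0237 for mRpL44 from ZT10 to ZT14. The cause was not tested.

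With 1 array left out, the mean over 3 hours ran from -0.00343 to 0.0502 for mRpL43, -0.0182 to 0.175 for mRpS25 and -0.0557 to 0.160 for mRpL52. The 2 h difference ran from -0.0578 to 0.207 for mRpS24, -0.0372 to 0.116 for mRpS18B and -0.00193 to 0.0343 for mRpL45. Trends of undisturbed flies ran from -0.000455 to 0.157 for mRpS30 and -0.0230 to 0.108 for mRpL21, and those of deprived flies from -0.0255 to 0.106 for mRpL21, -0.00202 to 0.0668 for mRpL45 and -0.00911 to 0.0703 for mRpS24. From ZT10 to ZT14 they ran from -0.0514 to 0.0578 for mRpL45 and -0.130 to 0.0742 for mRpL44.

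Deviations of 12 same-numbered pairs of arrays correlated at -0.38 to 0.44, with 5 over 0.1. With 3 arrays a group, these values cannot decide whether same-numbered pools were paired. With the replicate number as a block, 0 members passed and the median of the mean over 3 hours was -0.02; none of 100 results changed direction or side of the threshold. Within chip lots, that median was -0.08 in lot 2 (4 deprived, 3 sleeping arrays) and 0.01 in lot 3 (5 and 5). Hybridisation runs are confounded with treatment: no run held both deprived and sleeping arrays of 2 h, or of 6 h. They are confounded with hours too: in undisturbed flies no run held both early (ZT14 or 2 h) and late (4 or 6 h) arrays. Runs could be fitted only for the deprivation experiment. With 3 arrays a group, the simulated 4 h comparison recovered 16.4% of changes of 0.25 in probe sets drawn from all tested.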
